A study of Mus musculus with 8 samples.

Results

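The TCM siNT and SFM siNT libraries form the control arm of a study of melanoma cells on vessel wall matrix, and they set matrix made in TCM beside matrix made in SFM when the smooth muscle cells had received only the control siRNA. B16-F10 cells, a mouse melanoma line, were grown for 24 hours on the extracellular matrix that lysed smooth muscle cells had left behind. The smooth muscle cells had carried siNT for 72 hours and had then been kept for 72 hours in TCM or in SFM. The series title names tumor conditioned media of B16-F10 cells, which is read here as TCM, and the labels used here do not spell out SFM or siNT. Both groups share the melanoma line, the matrix source, the control siRNA and all times, and differ in the medium that the matrix-producing cells received. Other conditions of the series replaced siNT by siKLF4, siFN or both, written siKLF4-siFN, on each medium. The pair makes up 2 of 8 libraries, with 1 library per condition. No label says whether libraries came from separate cultures, so no p-value can be given for the pair itself.

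Genes entered the comparison when their FPKM, a fragment count corrected for gene length and depth, was at least 5 in either library. This rule kept 2812 of 46477 table entries, of which 1927 were protein coding and 710 were pseudogenes. Of these 2812, 2342 reached 5 FPKM in both libraries, 214 only in TCM siNT and 256 only in SFM siNT. The genes nearest the limit had a higher FPKM of 5.005 to 5.01 inside it and 4.99 to 4.993 outside it. Every difference below is log2(FPKM + 1) in TCM siNT minus log2(FPKM + 1) in SFM siNT, and the added 1 makes the differences of low genes smaller than their true log ratios. A gene is counted as past the fold when it differed by at least 1 on this scale. The ± values beside differences are counting errors (SE) from read numbers rebuilt from the FPKM steps. They say nothing about variation between cultures.

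Estimated depth was 13800000 reads in TCM siNT and 23000000 in SFM siNT, within a range of 11600000 to 23000000 over the 8 libraries. At these depths, 1795 of 2672 genes with a length (67.2%) differed beyond their 95% counting interval. Knockdown took place in the matrix-producing cells before lysis, which means that melanoma levels of the siRNA targets are no check of the labels. The sign of every difference below rests on these labels. In genes of division and stress, the TCM siNT library stood near SFM siFN and SFM siKLF4-siFN. The SFM siNT library stood near SFM siKLF4 and the remaining TCM libraries. An exchange of the labels TCM and SFM within the control pair, which would turn every sign, cannot be told apart from the labelled difference. Klf4, a zinc finger transcription factor, had 8.04 FPKM in TCM siNT and 6.84 FPKM in SFM siNT. Fn1, which encodes fibronectin, had 2.93 FPKM in TCM siNT and 1.82 FPKM in SFM siNT. All 37 mitochondrially encoded entries were listed at 0 in both libraries, so a listed 0 need not mean low expression.

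The label of the cells was read against marker lists. Of 10 melanocyte identity markers, 7 passed the FPKM rule, and the list summed to 522 FPKM in TCM siNT and 592 FPKM in SFM siNT. The summed FPKM of 20 smooth muscle markers was 2.04 in TCM siNT and 2.36 in SFM siNT, with none past the rule, 4 at 0 in both libraries and Acta2, smooth muscle actin, among those at 0. Fibroblast markers summed to 1.65 and 2.29 FPKM in the same order, with 10 of 20 at 0 in both, and endothelial markers to 4.23 and 5.71 FPKM, with 9 of 16 at 0 in both. Leukocyte markers summed to 4.66 FPKM in TCM siNT and 2.62 FPKM in SFM siNT. Nearly all of that was Cd68, a lysosomal protein best known from macrophages, at 4.52 FPKM in TCM siNT and 2.38 FPKM in SFM siNT, while 13 of the 19 markers were at 0 in both.

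Melanoma arises from melanocytes, the pigment cells. Its cells are known to shift between a dividing, pigmented state and slower, stressed or invasive states. Cell division genes are switched on together late in the cycle by complexes that bind the cell cycle homology region (CHR) and CCAAT boxes of their promoters. Interferon-stimulated genes carry a response element for interferon-regulated factors. Stress in the endoplasmic reticulum (ER) or a shortage of amino acids acts through phosphorylation of eIF2alpha and the transcription factor ATF4, which raises amino acid supply, tRNA charging and protein folding genes.

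Between the libraries, 26 of 2812 genes (0.925%) were higher in TCM siNT by at least 1 and 79 (2.81%) were lower. The middle of the distribution lay near 0, with a median difference of 0.014 and quartiles of -0.28 and 0.27. Values above 0 were held by 1434 genes (51.0%) and values below 0 by 1378 (49.0%). Rescaling both libraries to the same, larger FPKM sum shifted the median by 0.14 and gave 54 genes higher and 78 lower. The added 1 weighs less against larger values, so these counts mix a change of scale with a smaller effect of the added 1. Adding 0.1 in place of 1 without rescaling gave 29 higher and 104 lower. The preference for lower values thus depends in part on these settings. Of the 26 higher genes, 9 were protein coding and 9 pseudogenes. Of the 79 lower genes, 35 were protein coding and 36 pseudogenes. Past the fold were 2.28% of protein-coding genes and 6.34% of pseudogenes, whose reads can be split among near-identical copies. A further bias concerns the rule: 43 of the 79 lower genes and 9 of the 26 higher genes reached 5 FPKM in 1 library alone. Counts over a filter that treats both libraries alike, a mean FPKM of at least 1 over all 8 libraries, are therefore given beside the list counts and called the mean filter. Of 6917 such genes, 39 (0.564%) were higher by at least 1, 129 (1.86%) were lower by at least 1, and 51.6% lay below 0.

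**Figure D1:**
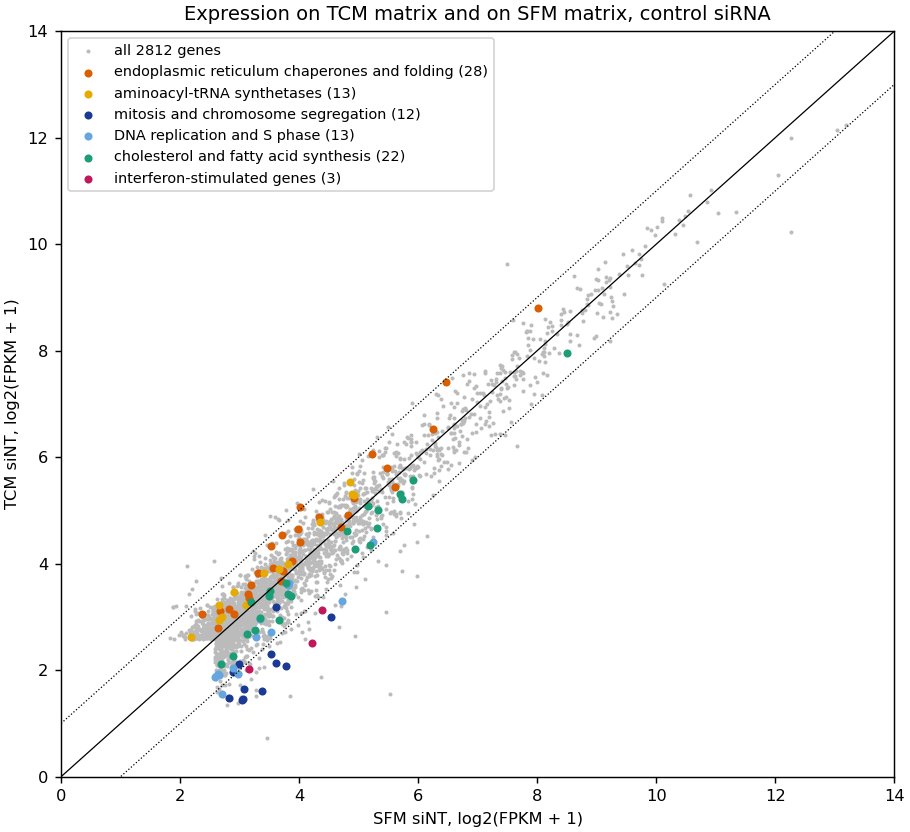
Each point is 1 of 2812 genes, with log2(FPKM + 1) in TCM siNT on the vertical axis and in SFM siNT on the horizontal axis; the solid line marks equal values, the dotted lines a difference of 1, and the numbers in the legend are measured members. The mitosis members lie below the solid line, 9 of 12 of them beyond the dotted line, and the ER chaperones lie mostly above it.

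Genes of cell division were lower in TCM siNT. All 12 members of the mitosis list that passed the FPKM rule lay below 0, with a median of -1.45, and 9 of them were lower by at least 1, against 2.81% of all genes. Of the 12, 10 had reached 5 FPKM in SFM siNT alone. Over the mean filter, all 35 mitosis genes lay below 0 and 17 were lower by at least 1, with a median of -1.0, where 1.86% of all genes were. The list holds 59 genes, and their summed FPKM was 67.2 in TCM siNT and 200 in SFM siNT.

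The promoters of these genes show the elements named above. The letters TTTGAA of the CHR were searched on both strands in RefSeq promoter windows on GRCm38.p6, from 250 bases before to 50 bases after each start site. They occurred in 40 of 51 windows of mitosis genes (78.4%), with 47 of 59 genes matched, and in 17.9% of all 32851 windows. CCAAT, on either strand, occurred in 37 of the 51 (72.5%) and in 37.4% of all windows. Of the 12 members that passed the FPKM rule, 9 were matched to 10 windows, 7 of them with the CHR and 8 with CCAAT. A match is a description of the letters, not a site in use. The 2 promoters printed here were picked among measured members whose window holds the CHR, so they are no sample of the list. Members with larger differences, such as Ccnb1 (-1.77) and Ccna2 (-1.69), are not printed. Capitals mark the CHR (TTTGAA or TTCAAA) and the CCAAT box (CCAAT or ATTGG). The printed windows lie at chr11:99024140-99024439 on the minus strand for Top2a and at chr6:124829926-124830225 on the plus strand for Cdca3, and each reads 5′ to 3′ along its gene.
Top2a: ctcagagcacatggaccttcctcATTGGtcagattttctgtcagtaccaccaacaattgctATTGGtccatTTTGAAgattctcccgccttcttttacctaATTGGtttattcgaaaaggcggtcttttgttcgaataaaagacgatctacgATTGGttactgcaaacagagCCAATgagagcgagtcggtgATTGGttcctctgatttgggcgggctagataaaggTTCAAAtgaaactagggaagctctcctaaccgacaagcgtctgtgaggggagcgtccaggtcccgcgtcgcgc
Cdca3: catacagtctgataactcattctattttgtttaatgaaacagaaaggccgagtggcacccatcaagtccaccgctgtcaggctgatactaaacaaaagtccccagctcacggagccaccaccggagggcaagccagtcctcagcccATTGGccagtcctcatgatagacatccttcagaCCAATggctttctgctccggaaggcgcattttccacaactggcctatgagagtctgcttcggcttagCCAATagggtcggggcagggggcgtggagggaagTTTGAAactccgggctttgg

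Entry into mitosis is driven by cyclins. Ccnb1, cyclin B1 of the mitotic kinase, on chromosome 13 (100778650 to 100786570), had 2.04 FPKM in TCM siNT against 9.38 FPKM in SFM siNT, a difference of -1.77 ± 0.10. Ccna2, cyclin A2 of S phase and G2, on chromosome 3 (36564865 to 36572150), had 3.23 FPKM in TCM siNT against 12.7 FPKM in SFM siNT, a difference of -1.69 ± 0.09. Ube2c, the ubiquitin-conjugating enzyme that works with the anaphase-promoting complex, had 1.73 FPKM in TCM siNT and 7.20 FPKM in SFM siNT. Both cyclins and the degradation enzyme were thus lower in the TCM library by 1.5 or more on the log2 scale. Cdc20, the activator of that complex, stood at 3.96 FPKM in TCM siNT and 10.5 FPKM in SFM siNT.

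Chromosome structure and segregation genes were low in the same library. Top2a, the topoisomerase that untangles chromosomes, on chromosome 11 (98992943 to 99024189), had 1.74 FPKM in TCM siNT and 7.29 FPKM in SFM siNT (-1.59 ± 0.07). Cdca3, a trigger of mitotic entry, on chromosome 6 (124829547 to 124833701), had 6.96 FPKM in TCM siNT and 22.3 FPKM in SFM siNT (-1.55 ± 0.08). The chromosomal passenger genes Birc5 and Aurkb, which correct attachments to the spindle, stood at 3.38 and 2.13 FPKM in TCM siNT, against 11.2 and 7.39 FPKM in SFM siNT. Bub3, a checkpoint protein with further roles outside mitosis, had the smallest difference of the 12, at 8.14 FPKM in TCM siNT and 11.3 FPKM in SFM siNT (-0.43). Mki67, the proliferation marker, did not reach 5 FPKM in both libraries, at 0.208 FPKM in TCM siNT and 1.28 FPKM in SFM siNT.

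Genes of DNA replication were also lower in TCM siNT, by less. All 13 S phase members that passed lay below 0 with a median of -0.75, and 3 were lower by at least 1, against 2.81% of all genes. Of the 13, 6 had reached 5 FPKM in SFM siNT alone, where they were higher. Over the mean filter 31 of 33 lay below 0 and 3 were lower by at least 1, with a median of -0.57, where 1.86% of all genes were lower by at least 1. Rrm2 and Rrm1 encode the subunits of ribonucleotide reductase, which makes deoxyribonucleotides. Rrm2, on chromosome 12 (24708241 to 24714146), had 8.79 FPKM in TCM siNT and 25.4 FPKM in SFM siNT (-1.43 ± 0.08), and Rrm1 had 2.81 FPKM in TCM siNT and 6.90 FPKM in SFM siNT (-1.05). The replicative helicase subunits did not differ evenly. Mcm4 had 1.93 FPKM in TCM siNT against 5.54 FPKM in SFM siNT, while Mcm2 had 11.4 against 13.3 FPKM and Mcm7 11.2 against 13.0 FPKM in the same order. Pcna, the sliding clamp, stood at 20.2 FPKM in TCM siNT and 36.7 FPKM in SFM siNT (-0.83 ± 0.06).

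Genes of chromatin proteins lay on both sides of 0. In the list of HMG proteins, Dek and Atad2, 3 of 5 measured members lay below 0 (median -0.22), against 49.0% of all genes. Over the mean filter 8 of 11 lay below 0. The 2 measured members above 0 were Hmga1 (0.20) and Ssrp1 (0.16). Hmgn2, a nucleosome-binding protein, had 9.82 FPKM in TCM siNT and 26.2 FPKM in SFM siNT. Hmgb2, an architectural protein of dividing cells, had 6.50 FPKM in TCM siNT and 16.7 FPKM in SFM siNT, and the histone variant gene H2afz 38.3 FPKM in TCM siNT and 75.4 FPKM in SFM siNT. Hist2h2aa2, a core histone gene whose reads can be split with a near-identical neighbour, was higher, at 31.1 FPKM in TCM siNT and 12.7 FPKM in SFM siNT. Of 8 core histone genes measured, 3 lay above 0 and 5 below, and over the mean filter 3 lay above and 12 below (median -0.25). Cyclins, kinases and inhibitors of G1 lay below 0 in 6 of 8 cases, and in 8 of 10 over the mean filter. Of the 8, 3 had reached 5 FPKM in SFM siNT alone. The list was led by Cdk2 (7.62 FPKM in TCM siNT, 16 FPKM in SFM siNT) and the inhibitor gene Cdkn2c (2.29 FPKM in TCM siNT, 5.48 FPKM in SFM siNT). Cdk2 overlaps Pmel, a more abundant gene that was also lower in TCM siNT, and the part of this overlap was not tested. Ccnd2, cyclin D2, lay above 0 at 41.6 FPKM in TCM siNT and 35.8 FPKM in SFM siNT.

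Targets of p53, the tumour suppressor, lay below 0 in 17 of 19 cases (median -0.33), and in 23 of 28 over the mean filter. Ccng1, cyclin G1, on chromosome 11 (40748552 to 40755311), had the largest difference of them, at 22 FPKM in TCM siNT and 70.3 FPKM in SFM siNT (-1.63 ± 0.05). Trp53inp1, a stress-induced nuclear protein, had 16.5 FPKM in TCM siNT and 32.8 FPKM in SFM siNT. Cdkn1a, the p21 inhibitor that arrests the cycle, had 30.3 FPKM in TCM siNT and 45.4 FPKM in SFM siNT (-0.57). The cycle genes and this cycle inhibitor were thus lower in the same library. Gadd45a, which belongs to both the p53 and the ATF4 lists, lay on the other side, at 94.4 FPKM in TCM siNT and 43.8 FPKM in SFM siNT (1.09 ± 0.04).

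Few genes of innate immune signalling were expressed, and those were mostly lower in TCM siNT. Cxcl10, a chemokine induced by interferon, on chromosome 5 (92346638 to 92348889), had 7.5 FPKM in TCM siNT against 42.8 FPKM in SFM siNT. Its difference of -2.37 ± 0.09 was the lowest among genes with an official name. Ccl5, another T cell attractant, had 1.62 FPKM in TCM siNT and 6.88 FPKM in SFM siNT (-1.59 ± 0.22). Of 50 interferon-stimulated genes 3 passed the FPKM rule. All 3 were lower by at least 1, against 2.81% of all genes, but 2 of them had reached 5 FPKM in SFM siNT alone. They were Isg15, a ubiquitin-like modifier, Ifitm3, which restricts virus entry, and Rsad2, the antiviral enzyme viperin. Isg15, on chromosome 4 (156199424 to 156200818), had 4.69 FPKM in TCM siNT and 17.5 FPKM in SFM siNT. Ifitm3 had 7.77 FPKM in TCM siNT and 20 FPKM in SFM siNT, and Rsad2 3.04 FPKM in TCM siNT and 7.97 FPKM in SFM siNT. Over the mean filter, 10 of 12 interferon-stimulated genes lay below 0 and 3 were lower by at least 1 (median -0.61). Of all genes in that filter, 51.6% lay below 0 and 1.86% were lower by at least 1. B2m, the light chain of MHC class I, had 17.4 FPKM in TCM siNT and 32.5 FPKM in SFM siNT, whereas the heavy chain genes H2-K1 (10.8 and 13.2 FPKM) and H2-D1 (14.2 and 13.7 FPKM, TCM siNT before SFM siNT) differed little.

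The Isg15 promoter is shown because it holds 3 overlapping copies of the interferon response element, searched as TTTCNNTTTC on both strands and printed in capitals. The window lies at chr4:156200769-156201068 on the minus strand (RefSeq, GRCm38.p6). The element occurred in 20 of 45 windows of interferon-stimulated genes (44.4%), with 37 of 50 genes matched, and in 3.4% of all windows.
Isg15: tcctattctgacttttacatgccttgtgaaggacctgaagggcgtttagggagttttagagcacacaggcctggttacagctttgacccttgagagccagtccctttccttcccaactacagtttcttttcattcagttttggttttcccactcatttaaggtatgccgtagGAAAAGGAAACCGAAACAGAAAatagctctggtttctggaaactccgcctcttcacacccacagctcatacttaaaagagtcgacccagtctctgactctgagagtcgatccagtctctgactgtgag

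Targets of ATF4 and CHOP were mostly higher in TCM siNT. Of 26 measured members of the ATF4 and CHOP list, 20 lay above 0 with a median of 0.33, against 51.0% of all genes above 0. Over the mean filter 23 of 29 lay above 0, also with a median of 0.33. Ppp1r15a, the phosphatase subunit GADD34 that reverses eIF2alpha phosphorylation, on chromosome 7 (45522916 to 45526268), had 129 FPKM in TCM siNT and 58.8 FPKM in SFM siNT (1.12 ± 0.03). Among the transcription factors, Cebpb had 42.1 FPKM in TCM siNT and 24.6 FPKM in SFM siNT, and Ddit3, which encodes CHOP, 47.5 FPKM in TCM siNT and 29.5 FPKM in SFM siNT. Atf4 itself, which is controlled mainly at translation, stood at 373 FPKM in TCM siNT and 295 FPKM in SFM siNT (0.34). Some members lay the other way. Eif2s2, the beta subunit of eIF2, had 3.31 FPKM in TCM siNT and 8.01 FPKM in SFM siNT (-1.06).

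Atf3, a factor induced by ATF4, had 7.98 FPKM in TCM siNT and 5.00 FPKM in SFM siNT (0.58), and its promoter is shown as an example of the ATF4 core. That core, TGATGNAA on either strand, occurred in 10 of 35 windows of the list (28.6%), with 30 of 34 genes matched, and in 4.0% of all windows. Capitals mark its reverse complement in the Atf3 window at chr1:191183284-191183583 on the minus strand (RefSeq, GRCm38.p6).
Atf3: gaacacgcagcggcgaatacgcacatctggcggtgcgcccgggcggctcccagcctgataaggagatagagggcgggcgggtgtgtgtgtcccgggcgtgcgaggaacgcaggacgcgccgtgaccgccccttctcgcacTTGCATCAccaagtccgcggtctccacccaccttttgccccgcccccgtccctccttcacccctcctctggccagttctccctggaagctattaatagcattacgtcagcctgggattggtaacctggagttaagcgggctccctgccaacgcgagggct

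Chaperones and folding enzymes of the ER were mostly higher in TCM siNT. Of 28 members, 25 lay above 0 with a median of 0.35, and over the mean filter 31 of 36 with a median of 0.32. Hyou1, an ER chaperone of the HSP70 family, on chromosome 9 (44379490 to 44392369), had 32.3 FPKM in TCM siNT and 15.1 FPKM in SFM siNT (1.05 ± 0.04). Calr, the calcium-binding lectin chaperone calreticulin, had 170 FPKM in TCM siNT and 87.7 FPKM in SFM siNT (0.95 ± 0.03). Hspa5, the main ER HSP70 known as BiP, had 446 FPKM in TCM siNT and 258 FPKM in SFM siNT (0.79 ± 0.01). The translocon subunit gene Sec61a1 stood at 65.7 FPKM in TCM siNT and 36.6 FPKM in SFM siNT, and the disulfide isomerase gene Pdia6 at 22.2 FPKM in TCM siNT and 12.1 FPKM in SFM siNT. Members below 0 were Hsp90b1, at 42.5 FPKM in TCM siNT and 47.8 FPKM in SFM siNT, Sec61b and the transcription factor gene Xbp1, whose differences lay between -0.17 and -0.02.

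Genes of tRNA charging and amino acid supply lay on the same side. All 13 measured aminoacyl-tRNA synthetases lay above 0 (median 0.41), as did 20 of 22 over the mean filter (median 0.26). Sars, which charges serine, on chromosome 3 (108424865 to 108445209), had 45.5 FPKM in TCM siNT and 27.9 FPKM in SFM siNT (0.69 ± 0.03), and Wars, for tryptophan, 8.41 FPKM in TCM siNT and 5.28 FPKM in SFM siNT. Of 17 amino acid uptake and serine synthesis genes, 14 lay above 0 (median 0.24), as did 20 of 25 over the mean filter (median 0.22). Aldh1l2, a mitochondrial enzyme of folate metabolism, led them at 16.1 FPKM in TCM siNT and 8.47 FPKM in SFM siNT (0.85 ± 0.05). Slc3a2, the heavy chain of amino acid exchangers, had 45 FPKM in TCM siNT and 32.3 FPKM in SFM siNT.

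Members of the heat shock chaperone list did not follow the ER group, with 6 of 12 above 0 and 6 below, and 9 on each side over the mean filter. Hsp90aa1, the inducible HSP90, was lower at 25.9 FPKM in TCM siNT and 59.8 FPKM in SFM siNT, while the constitutive form Hsp90ab1 stood at 573 FPKM in TCM siNT and 421 FPKM in SFM siNT. Hsp90aa1 was also low in TCM siKLF4 (26.5 FPKM) and SFM siKLF4-siFN (7.09 FPKM), against 44.3 to 67.9 FPKM in the other libraries. Targets of NRF2, the antioxidant regulator, were split 11 above to 8 below (15 to 14 over the mean filter), with Hmox1, heme oxygenase, at 165 FPKM in TCM siNT and 113 FPKM in SFM siNT, and Gstm1, a glutathione transferase, at 12.6 FPKM in TCM siNT and 22.4 FPKM in SFM siNT. Lonp1, a protease of the mitochondrial matrix, stood among the 15 highest differences of genes with an official name, at 60.4 FPKM in TCM siNT and 32.3 FPKM in SFM siNT.

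**Figure D2:**
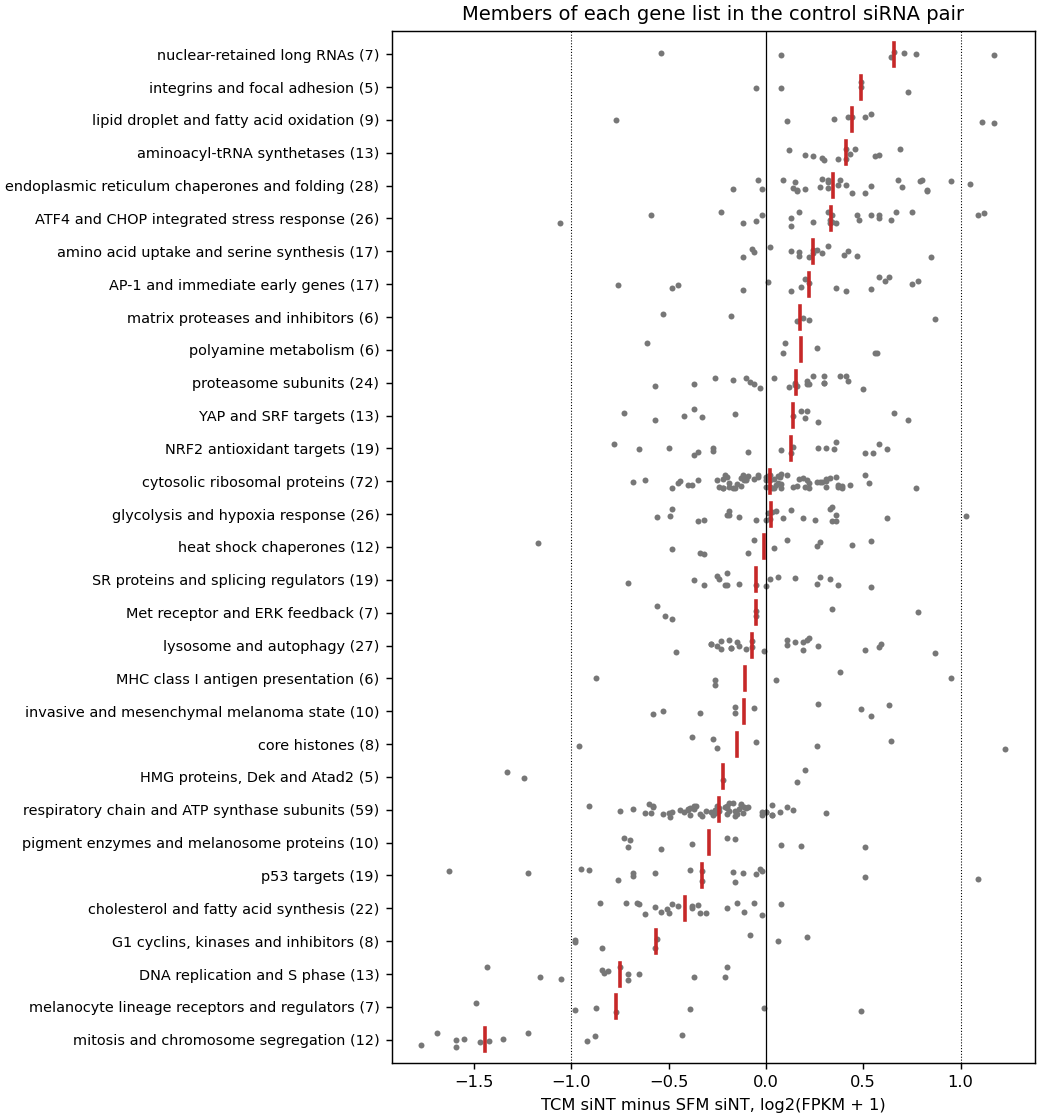
Each grey point is a measured member of a gene list, placed by its TCM siNT minus SFM siNT difference of log2(FPKM + 1); red bars are medians, dotted lines mark -1 and 1, and the number after each name is the count of measured members. Lists with few measured members are not plotted. Among the lists plotted, mitosis has the lowest median (-1.45) and 12 of 12 members below 0. Of these 12, 10 reached 5 FPKM in SFM siNT alone. All 13 aminoacyl-tRNA synthetases and 25 of 28 ER chaperones lie above 0.

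Genes of lipid synthesis were lower in TCM siNT. Of 22 measured genes of cholesterol and fatty acid synthesis, 21 lay below 0 with a median of -0.42, and 34 of 35 over the mean filter with a median of -0.34. None was lower by at least 1, against 2.81% of all genes under the FPKM rule. Idi1, which isomerises isopentenyl diphosphate, on chromosome 13 (8885501 to 8892451), had 19.4 FPKM in TCM siNT and 35.6 FPKM in SFM siNT (-0.85 ± 0.05). Hmgcs1, the synthase at the start of the mevalonate pathway, had 18.4 FPKM in TCM siNT and 29.6 FPKM in SFM siNT, and Msmo1, a sterol demethylase, 24.4 FPKM in TCM siNT and 38.8 FPKM in SFM siNT.

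Genes of lipid storage and fatty acid oxidation lay mostly above 0, in 8 of 9 measured cases (median 0.44). Only 17 of 28 did so over the mean filter (median 0.07), so the direction rests on the more abundant members. Acot2, a mitochondrial acyl-CoA thioesterase, on chromosome 12 (83987861 to 83993873), had 41.2 FPKM in TCM siNT and 17.8 FPKM in SFM siNT (1.17 ± 0.06). Plin2, the coat protein of lipid droplets, on chromosome 4 (86648386 to 86670060), had 22.1 FPKM in TCM siNT and 9.70 FPKM in SFM siNT (1.11 ± 0.06). The exception was Fabp5, a fatty acid carrier, at 24.8 FPKM in TCM siNT and 43.0 FPKM in SFM siNT.

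Subunits of the respiratory chain and ATP synthase encoded in the nucleus lay below 0 in 51 of 59 cases and in 62 of 73 over the mean filter, with a median of -0.24 for both. The median was -0.12 after rescaling to the same sum, under which 74.6% of members lay below 0. Cox7b, of cytochrome oxidase, had 10.6 FPKM in TCM siNT and 20.8 FPKM in SFM siNT, and Sdhd, of succinate dehydrogenase, 6.68 FPKM in TCM siNT and 11.9 FPKM in SFM siNT. Glycolytic and hypoxia genes were spread around 0 (15 above and 11 below, or 19 and 13 over the mean filter). Their ends were Eno2, the neuronal enolase, at 12.2 FPKM in TCM siNT and 5.47 FPKM in SFM siNT, and Bnip3l, a mitophagy receptor, at 3.98 FPKM in TCM siNT and 6.36 FPKM in SFM siNT. Cytosolic ribosomal proteins were near balance, with 40 above and 32 below 0 and a median of 0.02, and 43 above and 35 below over the mean filter. Proteasome subunits lay above 0 in 16 of 24 cases (median 0.16), and over the mean filter 18 lay above and 15 below (median 0.08).

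Pigment cell genes were lower in TCM siNT in part. Of 7 measured members of the lineage list, 6 lay below 0 (median -0.77), and 12 of 13 over the mean filter (median -0.39). The list is not made of receptors and regulators alone, since it also holds Ptgds and S100b. It holds Cdk2 (-0.98) as well, which is counted among the G1 genes too, and its measured member above 0 was Mcam (0.49). Mc1r, the melanocortin receptor that sets pigment type, on chromosome 8 (123407107 to 123410744), had 8.24 FPKM in TCM siNT against 24.9 FPKM in SFM siNT (-1.49 ± 0.07). Ptgds, a prostaglandin synthase gene, had 27.9 FPKM in TCM siNT and 51.7 FPKM in SFM siNT. Sox10, the neural crest factor, had 21.8 FPKM in TCM siNT and 28.8 FPKM in SFM siNT. Mitf, the master regulator of melanocytes, was under the FPKM rule at 0.284 FPKM in TCM siNT and 0.777 FPKM in SFM siNT.

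Melanosome genes differed in both directions. Pmel, the fibril protein, had 67.3 FPKM in TCM siNT and 110 FPKM in SFM siNT (-0.71), and Mlana, another melanosome protein, 30.0 FPKM in TCM siNT and 50.6 FPKM in SFM siNT (-0.73). Tyrp1, an enzyme of melanin synthesis, had 298 FPKM in TCM siNT and 263 FPKM in SFM siNT, and Gpnmb, a glycoprotein of melanosomes and lysosomes, 197 FPKM in TCM siNT and 138 FPKM in SFM siNT. In all, 7 of 10 pigment genes lay below 0 (median -0.29), and 17 of 22 over the mean filter.

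Adhesion and signalling genes showed mixed directions. Zyx, zyxin of focal adhesions, had 50.9 FPKM in TCM siNT and 30.2 FPKM in SFM siNT, and Mcam, an adhesion molecule of melanoma cells, 33.0 FPKM in TCM siNT and 23.2 FPKM in SFM siNT. Only 5 of 42 integrin and focal adhesion genes passed the FPKM rule, 4 of them above 0, and over the mean filter 7 lay above and 7 below. Genes of the invasive melanoma state were split 4 above to 6 below (5 to 10 over the mean filter), with Vim, vimentin, at 163 FPKM in TCM siNT and 236 FPKM in SFM siNT. Immediate early genes lay above 0 in 13 of 17 cases (median 0.22), led by Myc at 20 FPKM in TCM siNT and 11.2 FPKM in SFM siNT. The median of that list was 0.14 over the mean filter, with 15 of 25 above 0. Id2, an inhibitor of differentiation factors and a BMP target, was lower at 12 FPKM in TCM siNT and 33.4 FPKM in SFM siNT. Ctsl, the lysosomal protease cathepsin L, was higher at 85.5 FPKM in TCM siNT and 46.4 FPKM in SFM siNT.

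Some non-coding RNAs had large differences. Malat1, a nuclear long RNA, had 34.2 FPKM in TCM siNT and 14.7 FPKM in SFM siNT. In the long RNA list, 6 of 7 measured members lay above 0 (median 0.66), against 51.0% of all genes. Of the 7, 1 was higher by at least 1, against 0.925% of all genes. The list is named for nuclear retention, but it also holds Gas5, Snhg8 and Snhg12, and where these RNAs lie in the cell was not measured. All 7 also passed the mean filter, and with no filter the median was 0.08. The RNA component of the signal recognition particle has near-identical gene copies, and their values lay on opposite sides: Rn7s2 had 14.6 FPKM in TCM siNT and 3.35 FPKM in SFM siNT, while Rn7s1 had 1.88 FPKM in TCM siNT and 13.5 FPKM in SFM siNT. Their reads can be split either way by counting, so neither value stands for the RNA as a whole. Rn7sk, which holds back a transcription elongation factor, had 17.8 FPKM in TCM siNT and 50.6 FPKM in SFM siNT.

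**Figure D3:**
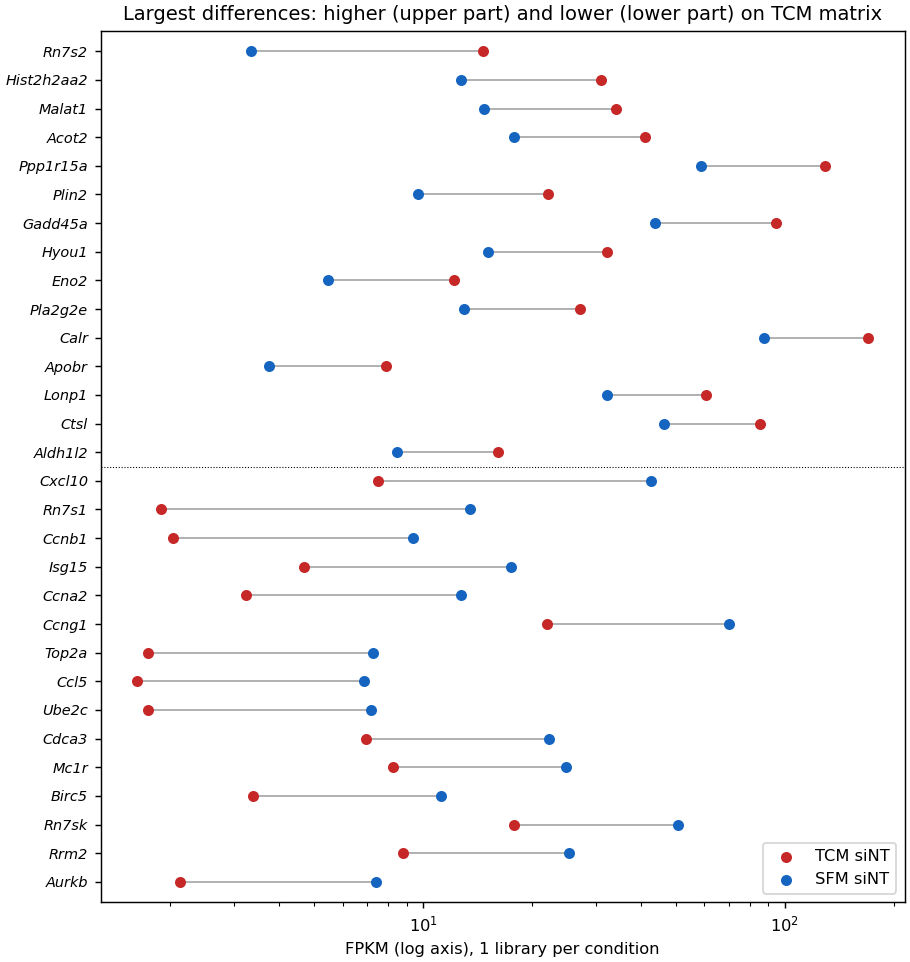
FPKM on a log axis of the 15 named genes with the highest and the 15 with the lowest difference, in TCM siNT (red) and SFM siNT (blue), with 1 library per point. The widest gaps among the protein-coding genes shown belong to Cxcl10, at 7.5 FPKM in TCM siNT and 42.8 FPKM in SFM siNT, and Ccnb1, at 2.04 FPKM in TCM siNT and 9.38 FPKM in SFM siNT.

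The other siRNA treatments show how the TCM to SFM difference varied where the medium changed in the same way. With siNT the mitosis median was -1.45. It was 0.13 with siKLF4, 2.10 with siFN and 1.99 with siKLF4-siFN over the same 12 genes, and none of the 12 lay below 0 in either siFN pair. Of these 12, 10 had passed the FPKM rule through SFM siNT alone. Over the mean filter the mitosis medians were -1.0 with siNT, 0.05 with siKLF4, 1.58 with siFN and 1.52 with siKLF4-siFN. The S phase medians were -0.75 with siNT, 0.22 with siKLF4, 1.42 with siFN and 1.49 with siKLF4-siFN. Over the mean filter they were -0.57, 0.17, 0.95 and 0.86. ER chaperones had medians of 0.35, 0.17, -0.33 and -0.38 in the same order of treatments, and the ATF4 list 0.33, 0.26, -0.37 and -0.58. Cholesterol synthesis had medians of -0.42, 0.06, 0.23 and 0.16. The control pair thus lay on the opposite side of 0 from both siFN pairs for division, stress and cholesterol lists, and the siKLF4 pair lay nearer to 0 than the control pair in each of these 5 lists. Some other lists did not turn about 0 in both siFN pairs. In the same order of treatments, aminoacyl-tRNA synthetases had medians of 0.41, 0.17, 0.02 and -0.28, and the respiratory chain -0.24, 0.19, 0.02 and -0.05. The medians over all 2812 genes were 0.01, 0.14, -0.03 and -0.15 in that order. Against these, the respiratory chain was lower with siNT and higher in both siFN pairs. The siKLF4 medians of mitosis and ER chaperones lay near that of all genes.

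**Figure D4:**
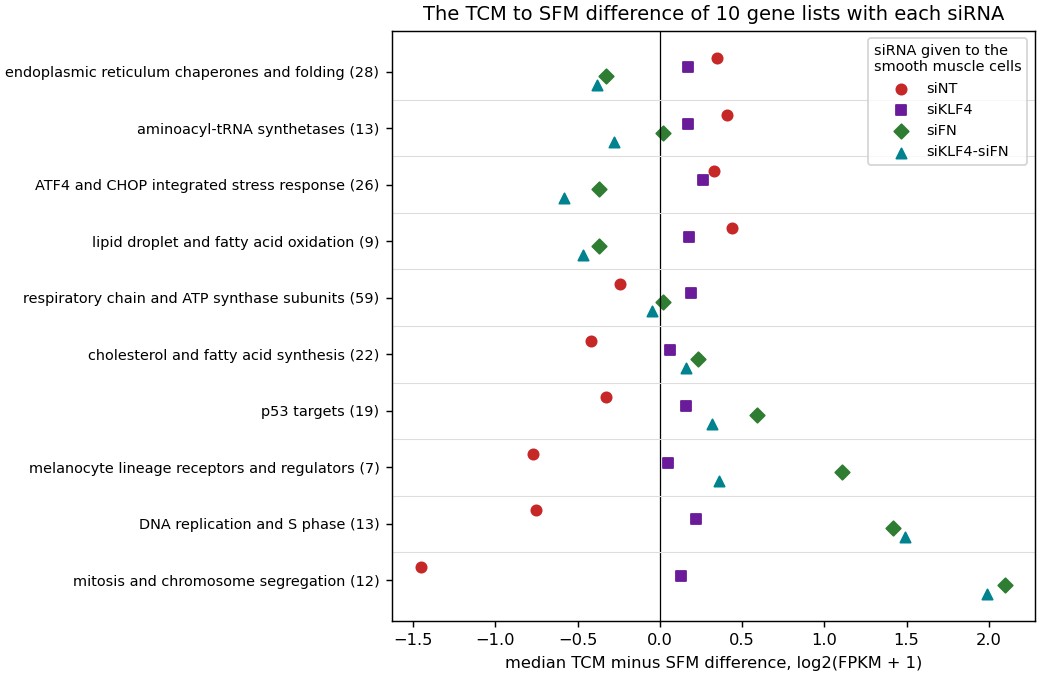
Median TCM minus SFM difference of log2(FPKM + 1) of 10 gene lists with each of 4 siRNA treatments of the smooth muscle cells, over the members measured in the control pair (numbers after the names). The mitosis median is -1.45 with siNT and 2.10 with siFN, and the ER chaperone median 0.35 with siNT and -0.33 with siFN. Over the mean filter, which is not plotted, the mitosis median is -1.0 with siNT and 1.58 with siFN.

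Single genes place these values library by library. Ccnb1 had 2.04 FPKM in TCM siNT, 0.962 FPKM in SFM siFN, 0.965 FPKM in SFM siKLF4-siFN, and between 7.83 and 9.38 FPKM in the other 5 libraries. Cxcl10 had 7.5 FPKM in TCM siNT, 15 FPKM in SFM siFN, 3.82 FPKM in SFM siKLF4-siFN, and 38.4 to 53 FPKM elsewhere. Hyou1 had 32.3 FPKM in TCM siNT, 37.6 FPKM in SFM siFN, 42.4 FPKM in SFM siKLF4-siFN, and 15.1 to 19.9 FPKM elsewhere. Plin2 had 22.1, 20.9 and 31.8 FPKM in those 3 libraries and 7.77 to 9.70 FPKM elsewhere. These 4 genes were picked after their values were seen, and others were ordered differently. Malat1 had 34.2 FPKM in TCM siNT and 14.7 FPKM in SFM siNT, but 36.9 FPKM in TCM siFN and 8.01 FPKM in SFM siKLF4-siFN. By the same count of genes past the fold, TCM siNT differed from SFM siFN in 67 genes, from TCM siKLF4 in 77, from TCM siFN in 86, from TCM siKLF4-siFN in 87, from SFM siKLF4 in 92, from SFM siNT in 105 and from SFM siKLF4-siFN in 154. SFM siNT differed from SFM siKLF4 in 31 genes, from TCM siKLF4-siFN in 56, from TCM siKLF4 in 68 and from TCM siFN in 81. It differed from SFM siFN in 147 and from SFM siKLF4-siFN in 326. Over all 28 pairs of libraries the count ran from 6 to 420, and the control pair ranked the 16th from the low end. With no replicates, how many genes a repeat of one condition would give is not known.

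**Figure D5:**
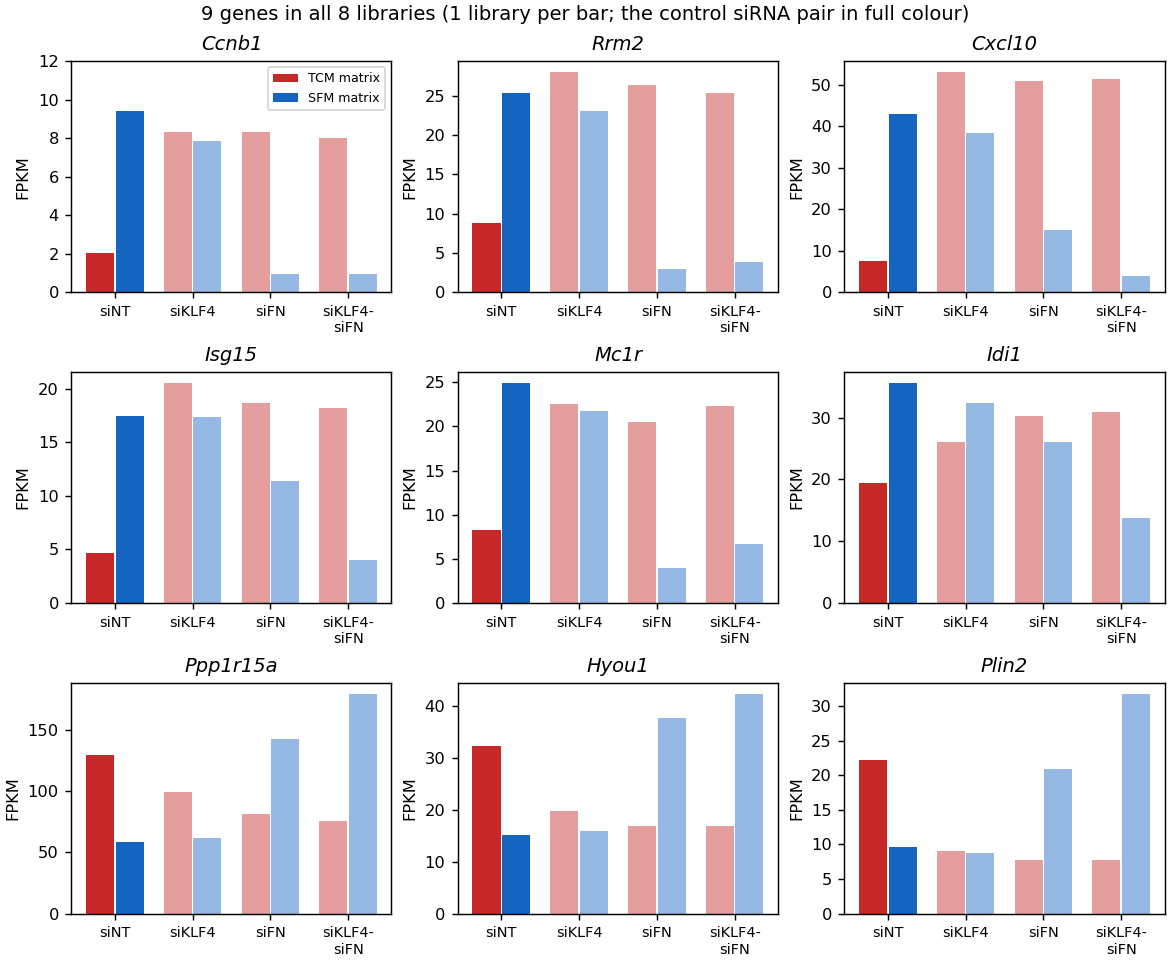
FPKM of 9 genes in all 8 libraries, 1 library per bar, with TCM matrix (red) left of SFM matrix (blue) for each siRNA and the control pair in full colour. Ccnb1 is low in TCM siNT (2.04 FPKM), SFM siFN (0.962 FPKM) and SFM siKLF4-siFN (0.965 FPKM), and Hyou1 is high in those libraries, at 32.3, 37.6 and 42.4 FPKM.

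A test of the difference between pairs was possible in 1 form, with the other treatments standing in for replicates. These treatments differ in siRNA, so their spread is not that of repeated cultures. The siNT medium difference was set against the mean of the other 3 in limma on log2(FPKM + 1), with 2 residual degrees of freedom. limma called 0 of 6917 genes at an adjusted p of 0.05 (0%), while 356 (5.15%) had an unadjusted p under 0.05, 57 of them above 0 and 299 below. The smallest p above 0 belonged to Cd68 (1.05 ± 0.29, SE), Aldh1l2 (1.39 ± 0.43) and Acot2 (2.52 ± 0.82). Below 0 the smallest p belonged to Rn7s1 (-2.50 ± 0.34), Ufsp1 (-1.24 ± 0.25) and the histone gene Hist1h4i (-1.78 ± 0.37). Each of these genes had a limma adjusted p of 0.849. Of 35 mitosis genes, 28 had an unadjusted p under 0.05 and none passed, with a median contrast of -2.10, and of 33 S phase genes 24 did so, with a median of -1.19. The count depended on the pairs taken as replicates: without the siKLF4 pair limma called 344 genes, 77 above 0 and 267 below, and without the siFN pair 1 gene, each with 1 residual degree of freedom. With no filter on low values it called 230, 90 above 0 and 140 below.

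Base composition moved with the difference between libraries. Across 1927 protein-coding genes, Spearman's rho between GC content of the transcript and the TCM to SFM difference was 0.24 with siNT, 0.51 with siKLF4, -0.18 with siFN and -0.51 with siKLF4-siFN. This is a description across genes of single libraries, and genes are not independent replicates. In 5 equal groups of genes from low to high GC content, the median siNT difference was -0.15, 0.01, 0.05, 0.10 and 0.12. Centring the differences within GC bins left the medians at -1.48 for mitosis, -0.77 for S phase, 0.42 for ER chaperones, 0.31 for tRNA synthetases and -0.41 for cholesterol synthesis. The part of base composition in single genes was not tested.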

How the data were processed

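B16-F10 cells from 8 conditions were sequenced, 1 library each. The authors deposited FPKM values per gene symbol. The tools were STAR 2.4.1d and Partek and the build mm10, per the submitters' processing notes. What annotation, counting rule, strand and scaling they used is not given in the sources. Reads of overlapping genes, pseudogenes and near-identical copies may be split. Symbols were matched to GENCODE M21 of GRCm38, the same assembly as mm10, for 42026 of 46477 entries (90.4%), with 1-based coordinates. Date-like names (27 entries) stayed unnamed.

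Differences used log2(FPKM + 1) in genes with at least 5 FPKM in either library. Sequencing depth was worked out from the smallest steps between FPKM values, of which 44.1% to 47.1% lay within 0.05 read of a whole number. Depths and counting errors are thus approximate, and no count test was run. limma 3.58.1 in R 4.3.3, two-sided, with a trend of variance on expression and Benjamini-Hochberg correction at 0.05, compared the pairs and was tested on simulated data. Its p-values reflect the spread of the medium difference among the other siRNA treatments, which are no true replicates. That spread can hold differences between siRNA treatments as well as technical ones.

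Named are the 15 highest and 15 lowest differences among genes with an official name, up to 6 members per list by absolute difference, 3 genes per direction in limma, and Klf4, Fn1, Mki67, Mitf and Mcam. Acta2, Atf4, Bub3, Cdc20, Hsp90b1, Mcm2, Mcm7, Sec61b and Xbp1 were added after their values were seen. The members and lists were chosen with earlier results of these data known. Alternatives varied the pseudocount, FPKM limit, scaling, biotype, GC centring, variance trend and pairs used.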

Additional observations from a re-analysis of the deposited data

Results flagged for a closer look

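The mitosis list had a median TCM minus SFM difference of -1.45 with siNT, while every measured member had the opposite sign with siFN and with siKLF4-siFN. The S phase list behaved the same way, with a median of -0.75 with siNT. Over the mean filter, the mitosis medians were -1.0 with siNT, 1.58 with siFN and 1.52 with siKLF4-siFN. The S phase medians were -0.57, 0.95 and 0.86 in the same order. The difference between these pairs was tested per gene only in the limma contrast against the mean of the other 3 pairs, which called 0 genes, and as a list it was not tested.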

How the results depend on the processing

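With 1 library per condition, the values describe these libraries, and depth limits only their counting error. The number of genes past the fold was 43 higher and 153 lower at 1 FPKM in either library, and the same with no filter. It was 15 and 28 at 20 FPKM, 9 and 35 in protein-coding genes alone, and 54 higher after rescaling to the same sum. The share of list members below 0 moved beyond its binomial interval in 8 recomputed values and not in 279. This interval treats the members as independent, which they are not, and is wide for short lists. For the 5 measured integrin genes it ran from 0.5% to 71.6%. A share inside its interval is therefore not shown to be stable. At 20 FPKM the share was 6.7% for the ATF4 list, 100% for cholesterol synthesis, 14.3% for proteasome subunits and 0% for the long RNA list. With no filter it was 48.8% for lipid storage and oxidation. After rescaling it was 74.6% for the respiratory chain, 27.8% for cytosolic ribosomal proteins and 0% for integrins. Among values of named genes, 29 moved, 91 did not and none turned sign. The limma contrast called 90 genes above and 140 below 0 with no filter. Leaving out 1 pair of libraries gave 0 to 77 above and 0 to 267 below, with 1 residual degree of freedom. The cause of these shifts was not tested. Centring within GC bins and the filter on mean FPKM were chosen after seeing the data. No paired analysis was possible because no condition has a second library and the labels number no replicates. The limma contrast matches TCM and SFM libraries by siRNA only.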

Other observations

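Lysosome and autophagy genes were spread around 0 in TCM siNT against SFM siNT, with 12 of 27 above 0 and a median of -0.07, and 17 of 40 above 0 over the mean filter (an average FPKM of 1 or more across the libraries). Gabarapl1, an autophagosome protein, had 23.7 FPKM in TCM siNT and 15.4 FPKM in SFM siNT, and Tpp1, a lysosomal peptidase, 25.1 FPKM in TCM siNT and 34.8 FPKM in SFM siNT. Polyamine genes lay above 0 in 5 of 6 measured cases and in 7 of 9 over the mean filter. Odc1, the rate-limiting decarboxylase, had 39.8 FPKM in TCM siNT and 26.6 FPKM in SFM siNT, and its inhibitor gene Oaz1, the exception, had 38.7 FPKM in TCM siNT and 59.5 FPKM in SFM siNT. Splicing regulators were split 9 above to 10 below 0 (13 to 18 over the mean filter), with Srsf5 at 45.6 FPKM in TCM siNT and 31 FPKM in SFM siNT and Hnrnpa1 at 13.1 FPKM in TCM siNT and 22 FPKM in SFM siNT.

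Cytoskeletal targets of YAP and SRF lay on both sides, 7 above and 6 below 0 (10 and 8 over the mean filter). Flna, the actin crosslinker filamin A, had 63.3 FPKM in TCM siNT and 39.7 FPKM in SFM siNT, while Actg1, cytoplasmic gamma actin, had 307 FPKM in TCM siNT and 510 FPKM in SFM siNT. Lgals3, galectin-3, stood at 24.7 FPKM in TCM siNT and 15.1 FPKM in SFM siNT. Of 46 extracellular matrix genes only 3 passed the FPKM rule, with differences between -0.16 and 0.19, and 7 of 9 lay above 0 over the mean filter. None of 30 genes of homologous recombination and crosslink repair reached 5 FPKM in either library, and 3 of the 4 with a mean FPKM of at least 1 lay below 0.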
